A study of Mus musculus with 4 samples.

Results

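The miR-500, miR-501, miR-362, miR-188 and miR-532 hairpins form 1 cluster on mouse chromosome X, inside the chloride transporter gene Clcn5. Their reads were compared between NIH-3T3 cells given thapsigargin and control NIH-3T3 cells, an established mouse fibroblast line. The members were chosen by name, as every read assigned to a single miRNA whose name was mmu-miR-500, mmu-miR-501, mmu-miR-362, mmu-miR-188 or mmu-miR-532, on either arm. This gave 10 arms out of 630 arms with a read in the study. The data are small RNA sequencing counts from 4 libraries of total RNA, 2 from cells kept in 500 nM thapsigargin for 24 h and 2 from control cells. The cells came from plates seeded alike and taken to confluency. Thapsigargin blocks the pump that fills the endoplasmic reticulum with calcium, and so empties that store and brings on endoplasmic reticulum stress. Nothing in the labels states that the 2 replicates of a group were grown as separate cultures, so the p-values speak only of the spread among these libraries, and that spread may be technical. Reads assigned to 1 arm numbered 5570971 and 2685965 in thapsigargin replicates 1 and 2, and 3857002 and 3633414 in control replicates 1 and 2. Of these, the members held 2382 and 981 reads with thapsigargin and 1448 and 1087 reads in the controls.

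The fibroblast identity of the samples was checked on miRNA markers. Of 8 fibroblast and mesenchymal markers, 6 were detected, and their summed level was 218474 and 272086 CPM (counts scaled to a common library size) with thapsigargin, against 169164 and 148047 CPM in the controls. These groups did not overlap, and the part of this in the results below was not tested. The markers listed for 6 other cell types summed to at most 12 reads in any library and list. These lists are short and do not hold every miRNA of a cell type, so the check speaks only of the markers on them.

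A miRNA gene is transcribed as part of a long primary RNA, from which Drosha cuts a hairpin and Dicer a short duplex. One strand of the duplex, from the 5p or the 3p side of the hairpin, is kept by an Argonaute protein, and its seed, the bases from the second to the eighth, pairs with target mRNAs. Hairpins that lie close together are usually cut from the same primary transcript. Within this cluster, miR-188-5p is known for its part in the choice of mouse bone marrow stromal cells between bone and fat, and miR-501-3p for its regulation of a glutamate receptor subunit in neurons. In human cancer cells, miR-532-5p is described as targeting RUNX3, and miR-362-5p and miR-500 as targeting the deubiquitinase CYLD.

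In RefSeq all 5 hairpins lie within Clcn5 and on its strand, and in the GENCODE annotation of the same build they overlap no other exon of Clcn5 or of any gene, so they are intronic. In the direction of transcription their order is Mir532, Mir188, Mir362, Mir501 and Mir500. Within 50 kb of any of them the only other RefSeq genes were Clcn5 and the pseudogene Gm26401, and no other miRNA gene. The study's notes name the mm9 build and the RefSeq table is for GRCm38.p6, so only the order is given here.

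The mature sequences are shown because the seeds group the arms, and because the end positions of the reads are later counted against them. They are from RefSeq (GRCm38.p6), 5′ to 3′, with the seed in capitals, for 9 of the 10 arms. By read match, the name mmu-miR-500 in the files is the 3p arm and mmu-miR-500* the 5p arm.
mmu-miR-532-3p: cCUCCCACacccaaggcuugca
mmu-miR-188-5p: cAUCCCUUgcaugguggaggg
mmu-miR-188-3p: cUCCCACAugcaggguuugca
mmu-miR-362-5p: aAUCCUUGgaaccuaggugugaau
mmu-miR-362-3p: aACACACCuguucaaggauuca
mmu-miR-501-5p: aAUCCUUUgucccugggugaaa
mmu-miR-501-3p: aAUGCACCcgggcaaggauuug
mmu-miR-500-5p: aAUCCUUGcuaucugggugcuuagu
mmu-miR-500-3p: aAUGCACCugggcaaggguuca

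Some seeds are shared within the cluster. The seed AUGCACC is that of both miR-500-3p and miR-501-3p, and AUCCUUG that of both miR-362-5p and miR-500-5p. miR-500-3p and miR-501-3p had the same base at 18 of 22 positions and differed by U9C, G18A, C21U and A22G, with miR-500-3p first and positions counted from the 5′ end. miR-362-3p had the same base as miR-500-3p at 17 of 22 positions, but 2 of the differences, C3U and A4G, fall in the seed. RefSeq gave a mature form for 464 of the 630 arms, and among these 1 arm outside the cluster had a seed in common with one of the 9 members shown: miR-329, with the seed ACACACC of miR-362-3p. miR-329 had 0 and 0 reads with thapsigargin and 1 and 0 reads in the controls. Only 9 further reads named a member beside another miRNA, and 6 reads lay on a member hairpin outside its arms.

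The 4 libraries were not alike at the 5′ end of the reads, and control replicate 1 stood apart. Over all member arms, 0.084% and 0.204% of the thapsigargin reads began at the reference start, against 97.9% in control replicate 1 and 0.092% in control replicate 2. Starts 1 base further in made up 97.7% and 97.8% of the thapsigargin reads, and 0.345% and 99.0% of the control reads. Thus most reads of control replicate 1 began at the first base of the mature form and most reads of the other 3 libraries at the second, on every arm with a read and a RefSeq mature form. The reference start was the RefSeq one, except for miR-532-5p, where it was set 1 base before the commonest start of those 3 libraries. For that arm the share 1 base in was thus set by the rule in those 3 libraries, and only the offset of control replicate 1 from them was measured. In mmu-miR-501-3p, which has a RefSeq start, 98.1% and 98.1% of the thapsigargin reads began 1 base in. In the controls this share was 1.30% and 98.3%. The same split held outside the cluster: over 134 other arms with at least 30 reads in every library, the median share at the RefSeq start was 0.028% and 0% with thapsigargin, and 96.9% and 0.010% in the controls. The seeds above were therefore taken from RefSeq and not from the reads. The shift was a property of the library rather than of a treatment group, and each result is given with the first base of the control replicate 1 reads taken off wherever that changes it.

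**Figure D1:**
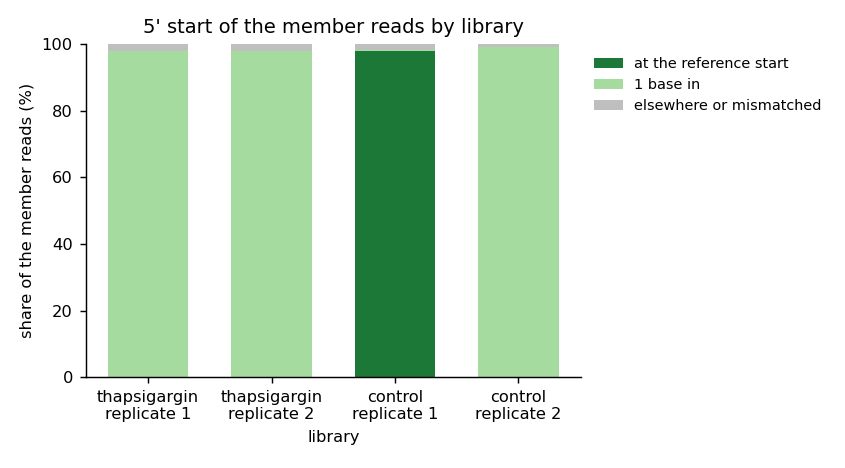
Share of the member reads (%, vertical axis) that began at the reference start, 1 base further in, or elsewhere, for each of the 4 libraries on the horizontal axis. Control replicate 1 has 97.9% of its reads at the reference start, and the other 3 libraries have 97.7% to 99.0% 1 base further in.

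Most reads of the cluster were from 1 arm. mmu-miR-532-5p held 2127 and 889 reads with thapsigargin and 1239 and 795 reads in the controls. That was 89.3% (95% Clopper-Pearson interval 88.0 to 90.5) and 90.6% (88.6 to 92.4) of the cluster's reads with thapsigargin, and 85.6% (83.6 to 87.3) and 73.1% (70.4 to 75.8) in the controls. These intervals, and all others given for reads, cover counting error only. Each read spans an arm, so levels of arms need no scaling by length. How evenly the library kit takes up different arms was not measured, so comparisons between arms are of reads. By mean level mmu-miR-532-5p ranked 70 among the 310 arms that passed the filter on low counts, while the next arm, mmu-miR-501-3p, ranked 164. The 4 other arms that passed were mmu-miR-500 (rank 221), mmu-miR-532-3p (224), mmu-miR-188-5p (277) and mmu-miR-362-3p (285), and the remaining 4 arms had at most 9 reads in any library.

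Levels were scaled to CPM with TMM factors, which adjust each library for its composition. mmu-miR-532-5p stood at 343 and 465 CPM with thapsigargin, and at 229 and 243 CPM in the controls. Both thapsigargin libraries were higher than both controls. mmu-miR-501-3p stood at 17.0 and 27.2 CPM with thapsigargin, and at 14.2 and 55.0 CPM in the controls. The controls enclosed the thapsigargin libraries here, and control replicate 2 was the highest. mmu-miR-500 stood at 7.59 and 3.66 CPM with thapsigargin, and at 8.13 and 13.2 CPM in the controls. Both thapsigargin libraries were lower, but thapsigargin replicate 1 lay close to control replicate 1, and the value of thapsigargin replicate 2 rests on 7 reads.

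mmu-miR-532-3p, from the other side of the hairpin that gives miR-532-5p, stood at 8.56 and 6.79 CPM with thapsigargin and at 8.50 and 6.12 CPM in the controls, which overlap. mmu-miR-188-5p stood at 2.75 and 2.61 CPM with thapsigargin and at 3.33 and 6.12 CPM in the controls, lower in both thapsigargin libraries. mmu-miR-362-3p stood at 3.23 and 3.14 CPM with thapsigargin and at 2.03 and 4.28 CPM in the controls, which enclose them. In the order of levels, mmu-miR-532-5p stood above mmu-miR-501-3p in every library, and mmu-miR-501-3p above all others. mmu-miR-500 and mmu-miR-532-3p overlapped each other, as did mmu-miR-188-5p and mmu-miR-362-3p.

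**Figure D2:**
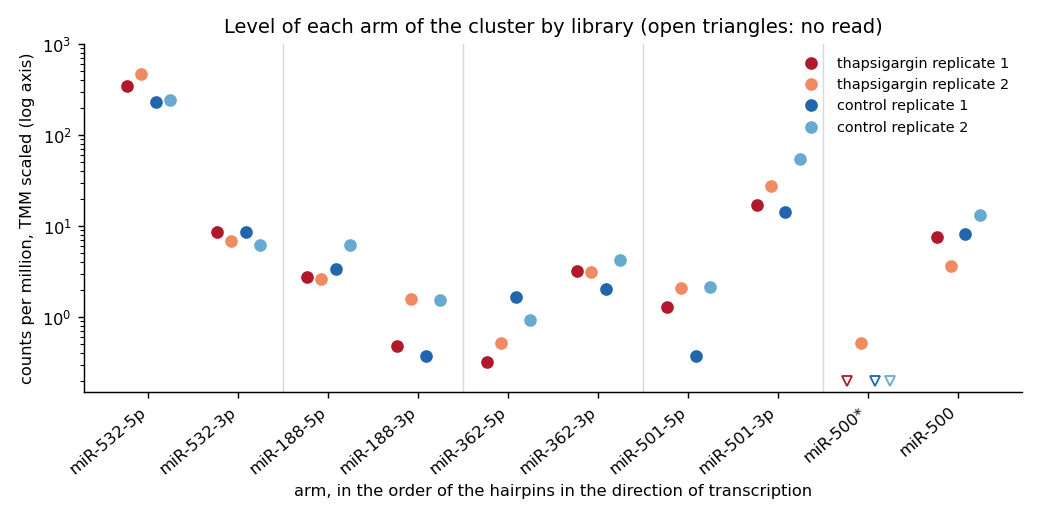
Level of each of the 10 arms in CPM (log axis) for the 4 libraries, 1 point per library, with open triangles where an arm had no read. miR-532-5p lies at 229 to 465 CPM in all libraries, and no other arm passes 55.0 CPM.

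The 4 remaining arms were too rare to test. mmu-miR-501-5p had 8 and 4 reads with thapsigargin and 2 and 7 reads in the controls, a ratio of pooled CPM of 1.43 with a 95% counting interval of 0.552 to 3.84. mmu-miR-188-3p had 3 and 3 reads with thapsigargin and 2 and 5 reads in the controls, a ratio of 0.918 (0.255 to 3.19). mmu-miR-362-5p had 2 and 1 reads with thapsigargin and 9 and 3 reads in the controls, a ratio of 0.268 (0.0485 to 0.992). mmu-miR-500* had 1 read in all, in thapsigargin replicate 2. Among the 5p arms that carry the AUCC start of the seed, only mmu-miR-188-5p was thus measured on more than a few reads.

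The comparison of the groups asked which arms differ after the calcium store is emptied, and no member passed it. The quasi-likelihood test of edgeR, with p-values adjusted over 310 arms by Benjamini-Hochberg, called 0 of the 6 members tested, and 0 of all 310 arms (0%). At an unadjusted p under 0.05 it had 12 arms, none of them a member, while DESeq2 called 0 arms with 15 at that level and limma-voom called 0 with 13. mmu-miR-532-5p had a log2 fold change of 0.77 (SE 0.48, adjusted p = 0.893), with means of 404 ± 85.6 CPM with thapsigargin and 236 ± 10.04 CPM in the controls (SD, n = 2 each). mmu-miR-500 had -0.86 (SE 0.66), mmu-miR-188-5p -0.78 (SE 0.68) and mmu-miR-501-3p -0.66 (SE 0.71). mmu-miR-532-3p had 0.08 (SE 0.61) and mmu-miR-362-3p 0.05 (SE 0.68). The adjusted p of these 5 arms was 0.987 each. In RNA from whole cultures, fewer cells that make an arm and less of it per cell cannot be told apart.

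Among the 6 arms tested, 3 had libraries that did not overlap between the groups: mmu-miR-532-5p was higher, and mmu-miR-500 and mmu-miR-188-5p were lower. Over all 310 arms 17.4% were higher and 16.1% lower in this sense, so 1 of 6 and 2 of 6 arms stand beside that background. The members had a median log2 fold change of -0.30, with 3 above and 3 below 0, and all 310 arms a median of -0.01, with 155 above and 155 below 0. Of 50 other arms from chromosome X, 24 were tested. Their median was 0.01, with 13 above and 11 below 0, and 5 were higher and 4 lower without overlap.

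The direction of 2 arms and the size of others hung on the scaling. Scaling by total arm reads moved the median of all arms to -0.36, and the same without the most abundant arm to -0.31. mmu-miR-532-3p and mmu-miR-362-3p then fell below 0, at -0.26 and -0.17 by total arm reads. mmu-miR-532-5p was at 0.40 by total arm reads, which is 0.76 above the median of all arms, against 0.78 above it with TMM factors. Relative to the median of all arms, mmu-miR-500 was at -0.67 and mmu-miR-188-5p at -0.65 by that scaling, against -0.85 and -0.78 with TMM factors. Levels in rpm are scaled to total arm reads without TMM factors. In rpm, mmu-miR-532-5p stood at 382 and 331 with thapsigargin and at 321 and 219 in the controls. It still did not overlap, but its nearest libraries, at 331 and 321, were close. By the same scaling mmu-miR-501-3p stood at 18.8 and 19.4 with thapsigargin and at 20.0 and 49.5 in the controls, and so no longer overlapped. The nearest libraries, at 19.4 and 20.0, were close. The share of all arms that separate under this scaling was not counted. Without control replicate 2 the log2 fold change of mmu-miR-501-3p turned to 0.58, and without control replicate 1 it was -1.33.

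**Figure D3:**
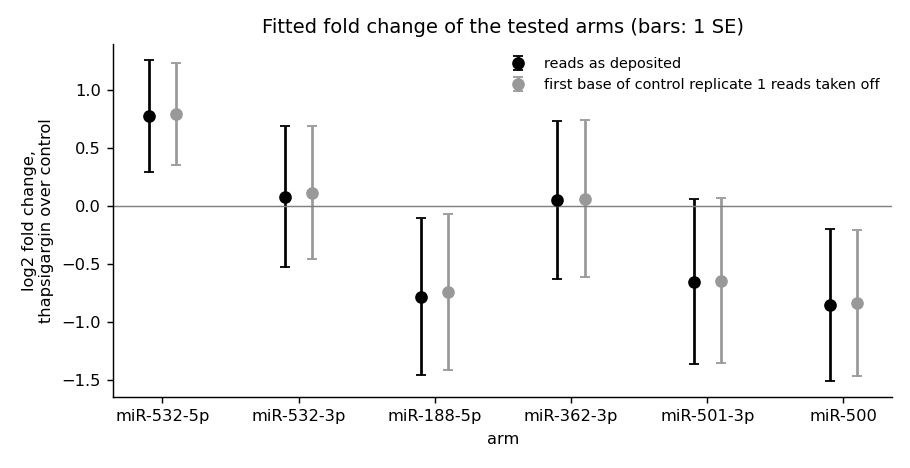
Log2 fold change of thapsigargin over control, with bars of 1 SE, for the 6 tested arms, with the reads as deposited (black) and with the first base of the control replicate 1 reads taken off (grey). The black points run from 0.77 for miR-532-5p to -0.86 for miR-500, and the grey points lie beside them.

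Ratios between arms of the cluster within 1 library do not depend on how libraries are scaled. There were 20.3 and 17.1 mmu-miR-532-5p reads for each mmu-miR-501-3p read with thapsigargin, and 16.1 and 4.42 in the controls. For each mmu-miR-500 read there were 45.3 and 127 mmu-miR-532-5p reads with thapsigargin, and 28.2 and 18.5 in the controls. For each mmu-miR-188-5p read the numbers were 125 and 178 with thapsigargin, and 68.8 and 39.8 in the controls. In all 3 ratios both thapsigargin libraries were higher than both controls. The mean log2 difference was 1.14 against mmu-miR-501-3p, 1.73 against mmu-miR-500 and 1.51 against mmu-miR-188-5p. Without control replicate 2 the first was 0.21, and without control replicate 1 it was 2.08. Without thapsigargin replicate 2 the difference against mmu-miR-500 was 0.99. The exact two-sided permutation p was 0.333 in each, which is the smallest that 2 libraries against 2 can give. The other arm of the same hairpin gave a smaller difference: 40.1 and 68.4 mmu-miR-532-5p reads for each mmu-miR-532-3p read with thapsigargin, and 26.9 and 39.8 in the controls, a log2 difference of 0.68 (exact permutation p = 0.333) that was 0.40 without control replicate 1, 0.29 without thapsigargin replicate 2 and 1.06 without thapsigargin replicate 1. mmu-miR-501-3p and mmu-miR-500, which have the same seed, stood at 2.23 and 7.43 to 1 with thapsigargin and at 1.75 and 4.19 to 1 in the controls, and overlapped. The 4 ratios with mmu-miR-532-5p on top did not overlap between the groups, are not independent of each other, and separated narrowly against mmu-miR-532-3p, at 40.1 against 39.8 in the nearest libraries. Over the 306 other tested arms with a read in every library, the ratio of mmu-miR-532-5p to the arm was higher with thapsigargin without overlap in 50.3%.

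Without mmu-miR-532-5p, the summed level of the cluster overlapped between the groups. All other arms together stood at 41.2 and 48.1 CPM with thapsigargin and at 38.6 and 89.3 CPM in the controls, and the controls enclosed the thapsigargin libraries. Reads with the seed AUGCACC, from mmu-miR-500 and mmu-miR-501-3p, summed to 24.5 and 30.8 CPM with thapsigargin and to 22.4 and 68.2 CPM in the controls. mmu-miR-501-3p made up 69.1% (61.1 to 76.3) and 88.1% (77.1 to 95.1) of the reads with that seed with thapsigargin, and 63.6% (54.4 to 72.2) and 80.7% (74.9 to 85.7) in the controls. The level of the whole mir-501 hairpin was uneven between the replicates of a group, with 18.2 and 29.3 CPM with thapsigargin and 14.6 and 57.2 CPM in the controls.

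The 5 hairpins did not all give most of their reads from the same side. These are shares of reads in total RNA, and binding to Argonaute was not measured. mir-532 and mir-188, the first 2 in the direction of transcription, gave mostly the 5p arm, and mir-362, mir-501 and mir-500 mostly the 3p arm. Over all 4 libraries, 97.5% of the mir-532 reads (97.0 to 97.9) and 82.2% of the mir-188 reads (71.5 to 90.2) were from the 5p arm. The 3p arm gave 77.3% of the mir-362 reads (65.3 to 86.7), 95.2% of the mir-501 reads (92.7 to 97.0) and 99.3% of the mir-500 reads (96.1 to 99.98). The side was the same in all 4 libraries for each hairpin, though for mir-362 in control replicate 1 the shares were near even, with 9 reads from the 5p arm and 11 from the 3p arm.

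For mir-532 the 5p share was 97.6% (96.8 to 98.2) and 98.6% (97.5 to 99.2) with thapsigargin, and 96.4% (95.3 to 97.4) and 97.5% (96.2 to 98.5) in the controls. For mir-362 the 5p share was 9.09% (1.12 to 29.2) and 14.3% (0.361 to 57.9) with thapsigargin, and 45.0% (23.1 to 68.5) and 17.6% (3.80 to 43.4) in the controls. For mir-501 it was 7.08% (3.11 to 13.5) and 7.14% (1.98 to 17.3) with thapsigargin, and 2.53% (0.308 to 8.85) and 3.74% (1.52 to 7.56) in the controls. For mir-188 it was 85.0% (62.1 to 96.8) and 62.5% (24.5 to 91.5) with thapsigargin, and 90.0% (68.3 to 98.8) and 80.0% (59.3 to 93.2) in the controls. In terms of the less abundant arm, the share was higher in both thapsigargin libraries than in both controls for mir-501, and lower for mir-532 and mir-362. For mir-532 the nearest thapsigargin and control libraries were nearly level, with 5p shares of 97.57% and 97.55%. Of the 81 hairpins with both arms above the filter on low counts, 13.6% were higher and 22.2% lower in this sense. Of the member hairpins only mir-532 is among them, so mir-501 and mir-362, with rarer second arms, have no like background. The intervals of thapsigargin replicate 2 and control replicate 1 did not overlap in mir-532, while in every other pairing of a thapsigargin with a control library, in these 4 hairpins, they did.

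**Figure D4:**
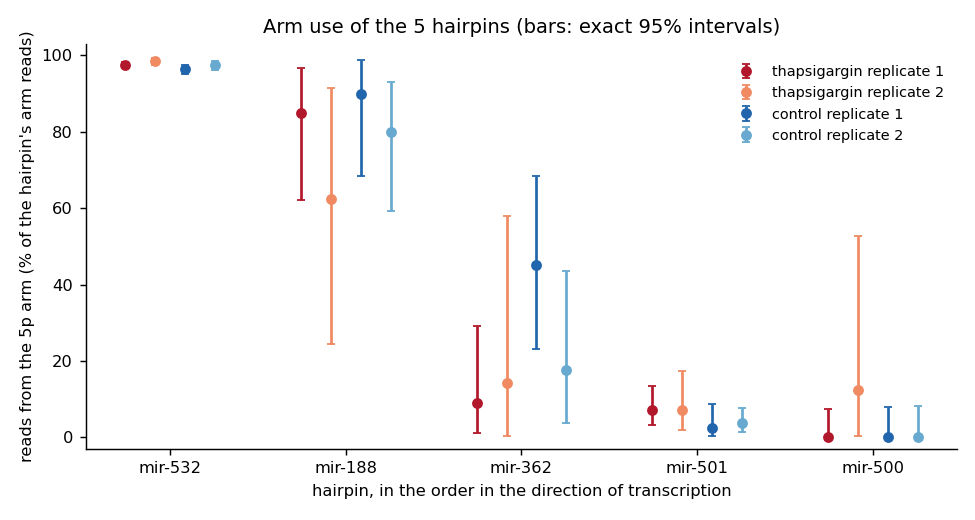
Share of each hairpin's arm reads that came from its 5p arm (%), for the 4 libraries, with exact 95% intervals as bars. mir-532 lies at 96.4% to 98.6%, mir-188 at 62.5% to 90.0%, and the other 3 hairpins at 45.0% or less.

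Arm use, as read counts, was compared between the groups with edgeR's arm-ratio test over the 81 hairpins of the study whose arms both passed the filter. It called 0 of 81 hairpins (0%), with 6 at an unadjusted p under 0.05. mir-532 was the only member hairpin in it. The ratio of miR-532-3p to miR-532-5p had a log2 difference of -0.70 (adjusted p = 0.954), which was -0.38 without control replicate 1, -0.33 without thapsigargin replicate 2 and -1.10 without thapsigargin replicate 1. The miR-532-3p share of the hairpin's reads was 2.14% (1.66 to 2.72) with thapsigargin and 3.14% (2.44 to 3.98) in the controls, over the summed reads of a group. With every arm of at least 1 read in each library kept, 4 member hairpins could be tested and 0 were called. The log2 difference in the second arm was then 0.72 for miR-188-3p, -1.81 for miR-362-5p and 1.11 for miR-501-5p, with adjusted p of 0.973, 0.910 and 0.973.

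Read forms were followed in the arms with at least 30 reads in every library, mmu-miR-532-5p and mmu-miR-501-3p. The commonest forms of mmu-miR-501-3p are printed as sequenced, without the seed marked, to show the 5′ shift and the added bases; here a capital marks a 3′ base that the hairpin does not encode.
commonest form in control replicate 1: aatgcacccgggcaaggatttg
commonest form in the other 3 libraries: atgcacccgggcaaggatttg
the same with 1 added base: atgcacccgggcaaggatttgT
ending 1 base earlier, with 1 added base: atgcacccgggcaaggatttT
The first form had 43 of 77 reads in control replicate 1. The second had 57 of 105 and 28 of 52 reads with thapsigargin, and 84 of 180 reads in control replicate 2. The third had 11 and 7 reads with thapsigargin and 23 reads in control replicate 2. Its counterpart that begins at the first base had 9 of 77 reads in control replicate 1. The fourth had 8 and 5 reads with thapsigargin and 22 reads in control replicate 2.

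The tails of mmu-miR-501-3p were mostly of U, and those of mmu-miR-532-5p mostly of A. Terminal nucleotidyltransferases can add such tails to finished miRNAs. A 1-base tail on a read that ends 1 base early has the length of the commonest form with its last base changed. These were not told apart. In mmu-miR-532-5p such a tail of A was on 6.11% and 5.51% of the reads with thapsigargin and on 4.36% and 5.66% in the controls. In mmu-miR-501-3p a tail of U alone was found on 20.0% and 25.0% of the reads with thapsigargin, and on 18.2% and 26.1% in the controls. Its tails of A alone were on 1.90% and 3.85% of the reads with thapsigargin and on 2.60% and 2.22% in the controls. In mmu-miR-532-5p a tail of A alone was found on 13.3% and 12.5% of the reads with thapsigargin and on 13.1% and 14.7% in the controls. Its tails of U alone were on 0.611% and 1.35% of the reads with thapsigargin and on 0.323% and 0.377% in the controls, which is 13 and 12 reads, against 4 and 3. Averaged over the libraries, 4 of the 134 other arms (2.99%) had a larger share of A tails than mmu-miR-532-5p, and 22 (16.4%) a larger share of U tails than mmu-miR-501-3p. The median of those arms was 2.05% for A and 3.30% for U. Other 3p arms of the cluster also had U tails, on fewer reads: mmu-miR-532-3p on 7 of 53 and 3 of 13 reads with thapsigargin and on 4 of 46 and 4 of 20 reads in the controls, and mmu-miR-500 on 1 of 47 and 2 of 7 reads with thapsigargin and on 1 of 44 and 6 of 43 reads in the controls.

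The share of tailed reads did not separate the groups in either arm. For mmu-miR-532-5p it was 16.8% in both thapsigargin libraries, against 15.7% and 17.7% in the controls, a difference of 0.0351 percentage points. For mmu-miR-501-3p it was 24.8% and 28.8% with thapsigargin and 22.1% and 28.3% in the controls, a difference of 1.60 points with an exact permutation p of 0.667.

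The 3′ end of mmu-miR-532-5p did differ without overlap. Reads that followed the hairpin and stopped short of the commonest end made up 26.2% (558 reads) and 32.1% (285 reads) with thapsigargin, and 19.0% (235 reads) and 20.9% (166 reads) in the controls. Reads at that end made up 47.6% and 43.5% with thapsigargin, and 56.3% and 55.2% in the controls. The shorter forms were thus 9.22 percentage points commoner with thapsigargin, and the form at the end 10.2 points rarer (a difference of -10.2 points). The exact permutation p was 0.333 for both, the smallest possible here. Reads that stopped 2 bases short accounted for 10.2% and 16.6% with thapsigargin and for 5.97% and 9.81% in the controls. Over the 134 other arms, taken against their own commonest ends, the median difference in the shorter forms was 0.58 points. In 26 of them (19.4%) the shorter forms were higher with thapsigargin without overlap, and in 28 (20.9%) the form at the end was lower. In 5 of the 134 the difference in the shorter forms was larger than in mmu-miR-532-5p. For the form at the end the median difference was -1.13 points, and 14 of the 134 had a larger fall.

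In mmu-miR-501-3p the same measure overlapped: 17.1% and 11.5% of the reads were short of the RefSeq end with thapsigargin, and 13.0% and 13.3% in the controls. Reads past that end were 3 of 105 and 2 of 52 with thapsigargin, and 6 of 77 and 18 of 180 in the controls. As shares these did not overlap and were lower with thapsigargin (exact permutation p = 0.333). They rest on few reads, and how many other arms separate on this measure was not counted. The ends of mmu-miR-500 were uneven. The form 1 base short of the RefSeq end held 31 of 47 and 3 of 7 reads with thapsigargin, and 35 of 44 and 15 of 43 reads in the controls, so that as shares the controls enclosed the thapsigargin libraries.

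**Figure D5:**
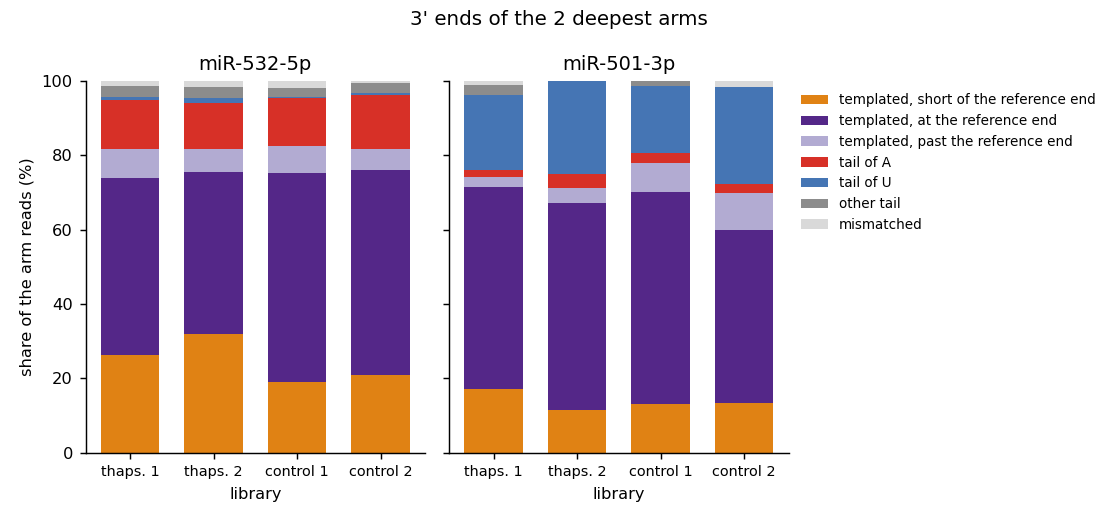
Share of the reads of miR-532-5p (left) and miR-501-3p (right) by 3′ end (%), stacked for each library: templated reads short of, at or past the reference end, reads with an added tail of A, of U or other, and mismatched reads. Short miR-532-5p reads reach 26.2% and 32.1% with thapsigargin, against 19.0% and 20.9% in the controls, and U tails reach 18.2% to 26.1% in miR-501-3p and at most 1.35% in miR-532-5p.

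Mean read length carried the 5′ shift. mmu-miR-532-5p reads averaged 20.8 and 20.7 nt with thapsigargin, and 21.9 and 20.9 nt in the controls, a difference of -0.66 nt. With the first base of the control replicate 1 reads taken off the difference was -0.17 nt, and the groups still did not overlap (exact permutation p = 0.333). The 3′ ends of the same reads also enter this length, so it is not a separate result. How many other arms separate on it was not counted. For mmu-miR-501-3p the difference was -0.56 nt as deposited and -0.06 nt with that base taken off (exact permutation p = 0.667), where the groups overlapped.

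By their pattern over the 4 libraries, the arms most like the summed cluster were miR-24, miR-130b and miR-192. The cluster stood at 385 and 513 CPM with thapsigargin, and at 268 and 332 CPM in the controls. Likeness was the Euclidean distance between values of log2(CPM + 1), each centred on its own mean, over 137 arms with a mean of at least 50 CPM. The distance was 0.19 for miR-24, which stood at 5727 and 6763 CPM with thapsigargin and 3780 and 5251 CPM in the controls. It was 0.28 for miR-130b, at 62.0 and 110 CPM with thapsigargin and 48.6 and 61.2 CPM in the controls. It was 0.34 for miR-192, at 695 and 720 CPM with thapsigargin and 516 and 585 CPM in the controls. With 4 libraries, this order is a description only.

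The authors' deposited table of the same comparison lists 324 miRNAs, among them 9 of the 10 arms, with adjusted p-values that round to 1. The names of its columns give no direction, and a positive value is read here as higher with thapsigargin. Its signs are therefore no separate check. In the authors' deposited table, mmu-miR-532-5p has a log2 fold change of 0.69, mmu-miR-500 -0.88, mmu-miR-188-5p -0.83, mmu-miR-501-3p -0.71 and mmu-miR-362-5p -1.87. The remaining arms lie between -0.10 for mmu-miR-188-3p and 0.43 for mmu-miR-501-5p in the authors' deposited table.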

How the data were processed

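Small RNA libraries from 4 NIH-3T3 samples were made with an Illumina TruSeq small RNA kit from TRIzol-extracted RNA, per the labels' protocols. Per the submitters' processing notes, CASAVA 1.8.1, cutadapt, Bowtie and DESeq 1.4.1 were used, with the mm9 build. The authors deposited whole-number counts of each distinct read with the miRNA it matched. They also deposited log2 fold changes and p-values of their own comparison.

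Rows that matched a single miRNA were summed here by arm over the mature, star and predicted star tables of each library. This gave 630 arms, with predicted star arms counted as arms of their own. The deposited mature summary of thapsigargin replicate 2 held the same count as the read table for 1 of the 9 member arms of that table type, against 9 of 9 in each other library, and was left out of every test. Its values are given only among the results set aside for a closer look.

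Abundance was tested with edgeR 4.0.16 in R 4.3.3 by a two-sided quasi-likelihood test with TMM scaling, robust fitting and a minimum count of 10, over the 310 arms that passed. The biological coefficient of variation was 0.447. Arm ratios were tested with diffSpliceDGE, and both families of p-values were adjusted after Benjamini and Hochberg, with a threshold of 0.05. Single values were compared by exact permutation over the 4 libraries (scipy 1.17.1), whose smallest p is 0.333. The fits were also run on simulated data, whose outcome is not reported here. For arm ratios that run used a smaller spread and a larger shift than the data, so it gives no power for differences like those seen. Reads were placed on the RefSeq hairpins, and up to 3 bases at the 3′ end that the hairpin does not encode were called a tail. For miR-532-5p the commonest ends took the place of the RefSeq ones. Alternatives were other scalings, no filter, DESeq2 1.42.0, limma-voom (limma 3.58.1), ambiguous reads added, the first base of control replicate 1 reads taken off, a block for the replicate number, and leaving out each library. Taking that base off dropped 56287 reads under 18 nt (1.42%), and the other reads took the assignment that the same sequence had in the other libraries.

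The named arms were all those of the 5 hairpins, those with a shared seed, and the 3 nearest in pattern. The members, lists and rules were chosen with earlier results of these data known.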

Additional observations from a re-analysis of the deposited data

Results flagged for a closer look

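A table of the authors that enters no test, the mature summary deposited for thapsigargin replicate 2, listed 4 member arms above both controls. For these, the lower bound of the exact 95% interval of the rpm lay above both control read tables. How many other arms of that summary lie above the controls in this sense was not counted, so the 4 arms have no background. The rpm of the summary are per reads of that summary (367170 in all). Those of the read tables are per mature, star and predicted star arm reads, so the scales differ. It listed mmu-miR-532-5p at 512 (441 to 591), against 321 and 219 in the controls, and 331 in the same library's read table. mmu-miR-501-3p was listed at 84.4 (57.4 to 120), against 20.0 and 49.5 in the controls and 19.4 in the read table. mmu-miR-362-5p was listed at 13.6 (4.42 to 31.8), against 2.33 and 0.826 in the controls. mmu-miR-501-5p was listed at 10.9 (2.97 to 27.9), against 0.519 and 1.93 in the controls. The last of these rest on 5 and 4 reads, and the summary's total is far below the 2685965 arm reads of the read table.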

How the results depend on the processing

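No member arm was called under any of the 14 alternatives for abundance, and no member hairpin under the 8 for arm ratio. Over all arms the calls moved from 0 to 3 with no filter on low counts and to 6 with the replicate block and the first base of the control replicate 1 reads taken off together, and with each library left out they ranged from 0 to 3, with 3 without control replicate 2 and 1 without control replicate 1. The other alternatives gave 0. The replicate block alone gave 0 calls and a log2 fold change of 0.76 for mmu-miR-532-5p (adjusted p = 0.554), and a log2 arm ratio of -0.69 for mir-532. Arms of the same replicate number deviated together (r = 0.57 over 310 arms), but 2 pairs with no stated shared source are not taken as paired. Over all hairpins the arm-ratio calls lay between 0 and 1 as each library was left out, with the 1 call without control replicate 2.

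The log2 fold change of mmu-miR-532-5p stayed above 0 under all 14 (0.40 to 0.93), and those of mmu-miR-500 (-1.56 to -0.46) and mmu-miR-188-5p (-1.17 to -0.32) below 0. Scaled by total arm reads, and the same without the most abundant arm, mmu-miR-362-3p turned to -0.17 and -0.23, and mmu-miR-532-3p to -0.26 and -0.21; the scaling itself moved the median of all arms. With each library left out, mmu-miR-362-3p ranged from -0.41 to 0.62, mmu-miR-501-3p from -1.33 to 0.58 and mmu-miR-532-3p from -0.16 to 0.35. The members' median was 0.02 with no filter, which adds 4 rare arms, and lay between -0.78 and 0.21 as each library was left out.

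For read forms, leaving out each library turned some differences round. In mmu-miR-501-3p the share at the RefSeq end ranged from -2.12 to 8.36 points, the share short of it from -1.62 to 3.98 and the tailed share from -1.53 to 4.73. In mmu-miR-532-5p the tailed share ranged from -0.964 to 1.03 points. The share of shorter mmu-miR-532-5p forms stayed between 6.31 and 12.1 points above the controls, and the share at the end between -12.2 and -8.20. Depth limits the rare arms most: thapsigargin replicate 2 held 7 reads or fewer of each member arm but mmu-miR-532-5p, mmu-miR-532-3p and mmu-miR-501-3p.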
